A study of Mus musculus with 27 samples.

Results

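PPARA is a nuclear receptor that is switched on by fatty acids and is best known for the response to fasting. In liver and intestine it raises the genes that carry fatty acids into mitochondria, break them down by beta-oxidation and turn the product into ketone bodies, and it raises genes that spare glucose. Its targets therefore follow the feeding state of the animal. Described here is *Ppara* with 7 of its well-known target genes in the distal ileum of mice given TCDD (2,3,7,8-tetrachlorodibenzo-*p*-dioxin), a persistent ligand of the transcription factor AhR (aryl hydrocarbon receptor). The 8 genes were taken by name from the 46078 genes of the count tables, and all 8 were among the 16741 that passed the filter on low counts.

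The RNA came from epithelium scraped from the distal ileum of 27 male C57BL/6 mice on postnatal day 56, sequenced as 1 library per mouse. Sesame oil alone (vehicle) was given to 3 mice, and TCDD in the same oil was given at 8 doses to 3 mice each, a low range of 0.01, 0.03, 0.1 and 0.3 µg/kg and a high range of 1, 3, 10 and 30 µg/kg. Dosing was by oral gavage every 4 d, and tissue was collected at 28 d. Per the study's methods every mouse was fasted for some hours beforehand, each was an independent biological replicate, and several mice shared a cage, but the cage, food intake and hour of collection of each mouse were not given in the sources used here. The mice of a dose are numbered 1 to 3 only to tell them apart.

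Gene counts summed to 12.26 to 17.14 M per mouse. A scraping holds several cell types, so a lower share of one cell type and less RNA per cell cannot be told apart in any value below. The 9 epithelial markers tested, such as *Epcam* and *Vil1*, summed to between 11500 and 15100 CPM (counts scaled by normalized library size) in every mouse, and *Cyp1a1*, the usual AhR target, was at 0 to 0.211 CPM with vehicle and rose to 1060, 1880 and 2280 CPM in the mice given 30 µg/kg. Judged by the library indexes, 16 mice (vehicle to 0.3 µg/kg and mouse 1 at 1 µg/kg) belong to a first use of the index set and the other 11 to a second, so that between vehicle and 3 µg/kg or more the effects of dose and of index cannot be told apart, while 3 and 30 µg/kg share their index use. A clock score (mean standardised level of 9 evening genes such as *Dbp* and *Per2*, minus that of 5 morning genes such as *Arntl*) ranged from -1.92 to -1.66 with vehicle, from 1.39 to 2.04 with 3 µg/kg and from 1.92 to 2.35 with 30 µg/kg, with mouse 3 at 0.01 µg/kg standing apart from its group at 1.5.

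Among the 8 genes, 4 rose at 30 µg/kg TCDD against vehicle and none fell. They were *Angptl4* (7.82-fold), *Pdk4* (6.95-fold), *Ppara* (1.88-fold) and *Acaa2* (1.88-fold). A gene was called where edgeR (quasi-likelihood, p adjusted by Benjamini-Hochberg over all tested genes) gave an adjusted p of at most 0.05 and the fold change at least 1.5. Of all tested genes 9.4% were called at this dose, and 5.42% were called upward. The median log2 fold change was 0.91 over the 8 genes and 0.02 over all genes tested. The other 4 genes, *Cpt1a*, *Acadm*, *Ehhadh* and *Acot1*, did not pass. At the 7 lower doses 0 of the 8 genes were called by edgeR or by DESeq2. At 0.01, 0.03, 0.1 and 0.3 µg/kg the table as a whole gave 0% called, at 1 µg/kg 0.591%, at 3 µg/kg 1.11% and at 10 µg/kg 2.53%. At an unadjusted p under 0.05 (edgeR), 0 members passed at 0.01, 0.03 and 1 µg/kg, where 4.18%, 3.53% and 14.1% of all tested genes did. The count was 1 of 8 at 0.1 and at 0.3 µg/kg (6.19% and 7.45% of all genes). It was 2 of 8 at 3 and at 10 µg/kg (13.7% and 17.4% of all genes).

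**Figure D1:**
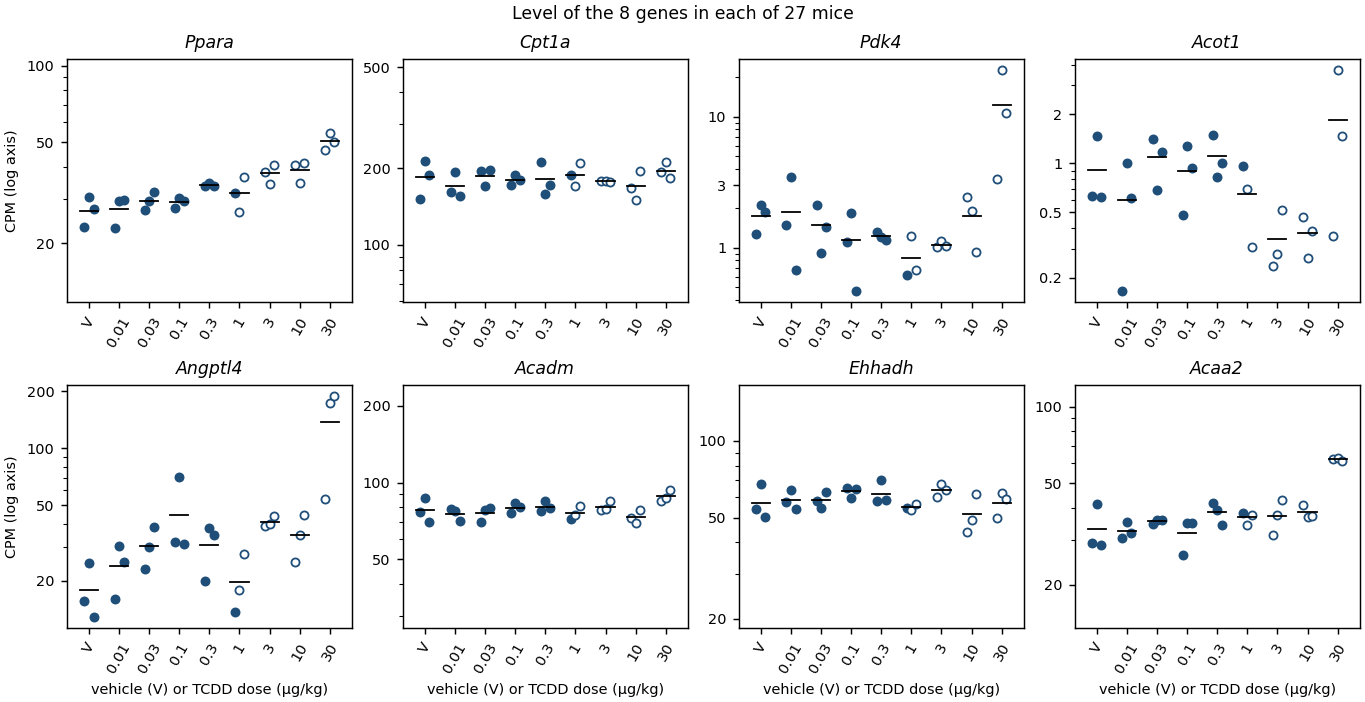
Level of each of the 8 genes in CPM (log axis) in every mouse, against vehicle (V) and TCDD dose in µg/kg. Points are mice, filled for the first and open for the second use of the library indexes, and bars are group means (n = 3); *Ppara* climbs over the upper doses, *Acaa2* stands apart at 30 µg/kg at 61.2 to 62.8 CPM, *Pdk4* and *Angptl4* scatter widely at 30 µg/kg, and *Cpt1a*, *Acadm* and *Ehhadh* stay level.

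*Ppara* itself (ENSMUSG00000022383, chromosome 15 of GRCm38, 85734983 to 85802819, + strand) was at 23.2, 30.3 and 27.2 CPM in vehicle mice. The 0.3 µg/kg mice were at 33.5, 34.6 and 33.6 CPM, and those at 1 µg/kg, at 31.6, 26.6 and 36.6 CPM, overlapped vehicle. Further up, the level was 38.0, 34.1 and 40.8 CPM for 3 µg/kg, then 40.5, 34.4 and 41.5 CPM for 10 µg/kg, and finally 46.5, 54.5 and 50.2 CPM for 30 µg/kg. Every mouse given 0.3, 3, 10 or 30 µg/kg lay above every vehicle mouse, and the 30 µg/kg mice lay above all 24 others. The log2 fold change at 30 µg/kg was 0.91 (standard error, SE, 0.12, adjusted p = 1.7e-05, edgeR), with a 95% interval of 0.66 to 1.15. Values for 3 and 10 µg/kg were 0.48 (adjusted p = 0.0357, edgeR) and 0.53 (adjusted p = 0.0121, edgeR), which passed the adjusted p and fell short of the 1.5-fold limit. Without the fold limit *Ppara* was thus the 1 member called at each of these doses. Groups next to each other in order of mean overlapped in range, except that 30 µg/kg stood apart from 10 µg/kg.

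*Acaa2* encodes the thiolase that carries out the last step of mitochondrial beta-oxidation (ENSMUSG00000036880, chromosome 18, 74779197 to 74806208, + strand). Vehicle mice were at 29.0, 41.6 and 28.7 CPM and the 30 µg/kg mice at 62.2, 62.8 and 61.2 CPM. Over the other 7 doses it ranged from 26.2 to 42.8 CPM, so that its level was flat up to 10 µg/kg and the 30 µg/kg mice exceeded all others with hardly any spread (62.1 ± 0.795 CPM, SD, n = 3). The log2 fold change was 0.91 (SE 0.13, adjusted p = 4.58e-05, edgeR; interval 0.64 to 1.17).

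The largest fold changes were in 2 genes that spare other fuels. *Angptl4* encodes a secreted inhibitor of lipoprotein lipase that limits the uptake of circulating fat (ENSMUSG00000002289, chromosome 17, 33773750 to 33781830, - strand). Its level was 15.6, 24.8 and 12.9 CPM in vehicle mice and 54.1, 173 and 189 CPM at 30 µg/kg, a log2 fold change of 2.97 (SE 0.41, adjusted p = 3.7e-05, edgeR; interval 2.11 to 3.82). Mouse 1 of that dose was well below the other two, and mouse 2 at 0.1 µg/kg, at 70.5 CPM, was above it. Between these extremes the group means showed no steady rise. They were 23.9 ± 7.33, 30.5 ± 7.79, 44.5 ± 22.5 and 30.8 ± 9.57 CPM in the low dose range and 19.8 ± 7.25, 41.0 ± 2.88 and 34.9 ± 9.63 CPM for 1, 3 and 10 µg/kg (mean ± SD of 3 mice), and all 3 mice exceeded every vehicle mouse at 0.1, 3, 10 and 30 µg/kg. At each of these doses the exact permutation test of 3 mice against 3 gave p = 0.1, two-sided, the smallest it allows. Such a separation always gives this p, so the test adds nothing to it.

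*Pdk4* encodes a kinase that shuts off pyruvate dehydrogenase and so holds back the burning of glucose (ENSMUSG00000019577, chromosome 6, 5483351 to 5496309, - strand). It was scarce, with 18, 29 and 27 counts or 1.27, 2.13 and 1.87 CPM in vehicle mice, and reached 3.37, 22.7 and 10.7 CPM (47, 293 and 132 counts) at 30 µg/kg. The log2 fold change was 2.80 (SE 0.54, adjusted p = 0.000979, edgeR; interval 1.69 to 3.91). It was 2.0 without mouse 2 of 30 µg/kg and 3.22 without mouse 1, and was called in both. Mouse 1 was again the lowest, and its 3.37 CPM lay below the 3.47 CPM of mouse 2 at 0.01 µg/kg. From 0.03 to 10 µg/kg the group means lay between 0.84 and 1.76 CPM. At 1 and 3 µg/kg all 3 mice were below every vehicle mouse, at log2 fold changes of -1.09 (adjusted p = 0.445, edgeR) and -0.72 (adjusted p = 0.669, edgeR), which did not pass.

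The same TCDD 30 µg/kg mouse, mouse 1, differed from its group in other measures. It held the most RNA of adipocyte and smooth muscle marker genes, with *Adipoq*, an adipocyte hormone, at 10.7 CPM against 0.0773 and 0 in mice 2 and 3, and *Myh11*, smooth muscle myosin, at 194 CPM against 47.4 and 20.3. The 8 adipocyte markers together summed to 131, 92.5 and 60.9 CPM in mice 1 to 3 against 47.9 to 83.5 CPM in vehicle mice, and *Lipe*, at 46.3 to 48.0 CPM with vehicle, made up 89.8 and 59.9 CPM of this in mice 2 and 3. The 7 smooth muscle markers summed to 375, 88.1 and 42.0 CPM against 30.5 to 123 CPM. *Pdk4*, *Angptl4* and *Acot1* were lowest in mouse 1, and *Pdk4* and *Angptl4* lay above every vehicle mouse in all 3. Mice 2 and 3 had more RNA of 6 proximal enterocyte markers (369, 1610 and 913 CPM in mice 1 to 3 against 303 to 576 CPM in vehicle) and less of 7 crypt and cell cycle markers (494, 226 and 284 CPM against 439 to 628 CPM). Of the 6, 3 were called upward at 30 µg/kg, among them *Fabp1*, which is also a pathway gene below. Of the 7, 4 were called downward (edgeR). Over all tested genes 5.42% were called upward and 3.98% downward. Of 5 striated muscle markers *Acta1*, skeletal actin, made up nearly all of a sum of 82.9, 116 and 232 CPM in mice 1 to 3, against 20.7 to 74.3 CPM with vehicle and 16.5 to 30.7 CPM with 3 µg/kg. *Acta1* was called in both comparisons (log2 fold changes 1.43 and 2.54, edgeR), while *Ckm* and *Mb*, which define striated muscle, were at no more than 0.573 CPM. The 7 leukocyte markers summed to 206 to 262 CPM against 323 to 509 CPM with vehicle, and only *Jchain*, of plasma cells, was called among them (-1.61, adjusted p = 0.00195, edgeR). The 5 hepatocyte markers summed to 2.44 to 3.51 CPM against 1.11 to 1.76 CPM, with *Ttr* called (1.40, adjusted p = 0.0102, edgeR) and *Alb* at or near 0. The part of these differences in the results was not tested. Without mouse 1 the 4 genes were called together with *Acot1*.

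*Cpt1a* encodes the enzyme that admits long-chain fatty acids to the mitochondrion and sets the pace of their oxidation (ENSMUSG00000024900, chromosome 19, 3322334 to 3385733, + strand). It was at 151, 214 and 189 CPM in vehicle mice and 193, 212 and 183 CPM at 30 µg/kg, with group means of 170 to 196 CPM over all 9 groups. The log2 fold change at 30 µg/kg was 0.09 with an interval of -0.17 to 0.34 (adjusted p = 0.685, edgeR), so that a change beyond 1.27-fold lay outside the interval. *Acadm*, the medium-chain acyl-CoA dehydrogenase (ENSMUSG00000062908, chromosome 3, 153922357 to 153944632, - strand), was at 76.7, 87.1 and 69.9 CPM in vehicle mice and 84.7, 86.6 and 93.5 CPM at 30 µg/kg (log2 fold change 0.18, interval 0.01 to 0.35, adjusted p = 0.133, edgeR). *Ehhadh*, a peroxisomal enzyme that joins the hydratase and dehydrogenase steps of beta-oxidation (ENSMUSG00000022853, chromosome 16, 21761287 to 21787807, - strand), was at 53.8, 67.7 and 50.1 CPM in vehicle mice and 50.0, 62.5 and 58.9 CPM at 30 µg/kg. Its interval was -0.25 to 0.25 on the log2 scale (adjusted p = 0.995, edgeR). For *Cpt1a*, *Acadm* and *Ehhadh* the vehicle and 30 µg/kg mice overlapped.

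*Acot1*, a cytosolic thioesterase that frees fatty acids from coenzyme A (ENSMUSG00000072949, chromosome 12, 84009490 to 84018371, + strand), was near the limit of detection at 2 to 48 counts per mouse. It was at 0.634, 1.47 and 0.623 CPM in vehicle mice and 0.358, 3.71 and 1.47 CPM at 30 µg/kg. The log2 fold change was 1.02 with an interval of -0.19 to 2.23 (adjusted p = 0.247, edgeR), and without mouse 2 of 30 µg/kg it was -0.01. At 3 and 10 µg/kg all 3 mice lay below every vehicle mouse, between 0.236 and 0.517 CPM (adjusted p = 0.417 and 0.374, edgeR). Of the 50-base stretches of its transcript, 33.6% also occur in transcripts of other genes, mostly its neighbour *Acot2* and other members of the family, so its counts are uncertain. The corresponding share was 4.1% in *Acadm* and 1.43% in *Pdk4*, and 0% in the other 5 genes.

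**Figure D2:**
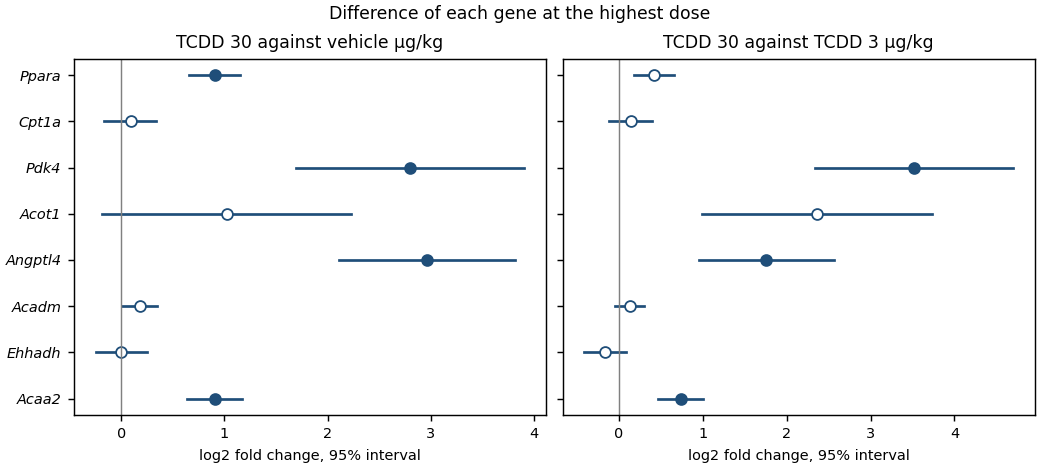
Log2 fold change of each of the 8 genes with its 95% interval, at 30 µg/kg TCDD against vehicle (left) and against 3 µg/kg TCDD (right), from the fit of 27 mice. Filled points passed an adjusted p of 0.05 and a 1.5-fold limit; *Pdk4*, *Angptl4* and *Acaa2* passed in both panels, *Ppara* on the left only.

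Levels between genes were compared per kilobase of annotated exon. In vehicle mice *Cpt1a* was highest at 24.1 ± 4.16 CPM per kb, followed by *Acaa2* (21.8 ± 4.86), *Acadm* (19.9 ± 2.22), *Ehhadh* (19.2 ± 3.11), *Ppara* (7.01 ± 0.933), *Angptl4* (5.01 ± 1.77), *Pdk4* (0.5 ± 0.126) and *Acot1* (0.232 ± 0.124). The first 4 did not differ beyond their spread, nor did *Ppara* and *Angptl4*. At 30 µg/kg TCDD the order was led by *Acaa2* (40.9 ± 0.525 CPM per kb) and *Angptl4* (39.2 ± 20.8), ahead of *Cpt1a* (25.6 ± 1.92), *Acadm* (22.6 ± 1.17), *Ehhadh* (19.2 ± 2.16), *Ppara* (13.1 ± 1.05), *Pdk4* (3.49 ± 2.77) and *Acot1* (0.471 ± 0.436; SD, n = 3 throughout). *Angptl4* thus moved from sixth place to a level among the oxidation enzymes, although its spread at this dose covered theirs.

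The comparison of 30 with 3 µg/kg TCDD asked whether the genes still differed between mice of the same index use whose clock scores overlapped in part. The scores were 1.39, 1.77 and 2.04 at 3 µg/kg and 2.35, 2.14 and 1.92 at 30 µg/kg. *Pdk4*, *Angptl4* and *Acaa2* were called, 3 of 8 where 0.89% of all tested genes were. *Pdk4* was at 1.02, 1.12 and 1.03 CPM at 3 µg/kg, a log2 fold change of 3.52 (SE 0.57, adjusted p = 0.00192, edgeR), or 2.72 without mouse 2 of 30 µg/kg. *Acaa2* was at 31.3, 37.4 and 42.8 CPM at 3 µg/kg (0.74, SE 0.13, adjusted p = 0.00382, edgeR). *Angptl4* was at 38.7, 40.0 and 44.2 CPM (1.76, SE 0.39, adjusted p = 0.0228, edgeR), and its adjusted p rose above 0.05 when any mouse other than mouse 1 of 30 µg/kg was left out (0.0729 to 0.128). *Ppara* differed by 0.42 (adjusted p = 0.0753, edgeR) and *Acot1* by 2.36 (adjusted p = 0.0802, edgeR), and neither passed. In each of these genes except *Acot1* the 3 mice at 30 µg/kg lay above the 3 at 3 µg/kg. In a fit of these 6 mice alone 0 of the 8 genes were called, with adjusted p of 0.0948 for *Acaa2*, 0.132 for *Pdk4* and 0.212 for *Angptl4* at nearly the same fold changes.

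A trend over the rank of the dose was called for the same 4 genes as at 30 µg/kg, against 26.2% of all tested genes, and these tests share their mice. The log2 slope per dose step was 0.101 for *Ppara* (adjusted p = 3.67e-07, edgeR), 0.083 for *Acaa2* (adjusted p = 0.00035, edgeR), 0.259 for *Angptl4* (adjusted p = 0.000278, edgeR) and 0.288 for *Pdk4* (adjusted p = 0.00509, edgeR). *Pdk4* no longer passed without mouse 2 of 30 µg/kg (slope 0.139, adjusted p = 0.133). Within the 16 mice of the first index use 0 of the 4 passed, and the slope of *Pdk4* was -0.218, and within the 11 mice of the second, from 1 to 30 µg/kg, all 4 passed. The second index use holds all of the 30 µg/kg mice in which these 4 had been called, so that count is no separate result. The share of all tested genes called within each index use was not computed.

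Index use and the clock moved with dose, and both bear on the comparison with vehicle. With index use as a covariate *Ppara* (log2 fold change 0.90, adjusted p = 0.0231) and *Acaa2* (0.99, adjusted p = 0.0215) were still called at 30 µg/kg, and *Angptl4* (2.23, adjusted p = 0.0957) and *Pdk4* (2.21, adjusted p = 0.379) were not (edgeR). That fit rests on the 3 mice at 1 µg/kg to separate index from dose. With the clock score as a covariate 0 of the 8 passed, and of all tested genes 38 were called in place of 1574. This fit rests on the spread of the score within groups, widest at 0.01 µg/kg (-1.86 to 1.5). Vehicle (-1.92 to -1.66) and 30 µg/kg (1.92 to 2.35) did not overlap in score, so score and dose can hardly be told apart between them. The log2 fold changes of this fit were 0.61 for *Ppara*, 0.82 for *Acaa2*, 2.55 for *Angptl4* and 4.75 for *Pdk4* (adjusted p from 0.0644 to 0.184, edgeR). Against 3 µg/kg, the same covariate left *Pdk4*, *Angptl4* and *Acaa2* called. Mouse 3 at 0.01 µg/kg, with a clock score of 1.5, had *Ppara* at 29.5, *Acaa2* at 31.8, *Angptl4* at 25.1 and *Pdk4* at 0.678 CPM, each below the 30 µg/kg mice, whose scores were all higher than that of this mouse. The part of the clock in the differences from vehicle was not tested beyond these fits.

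**Figure D3:**
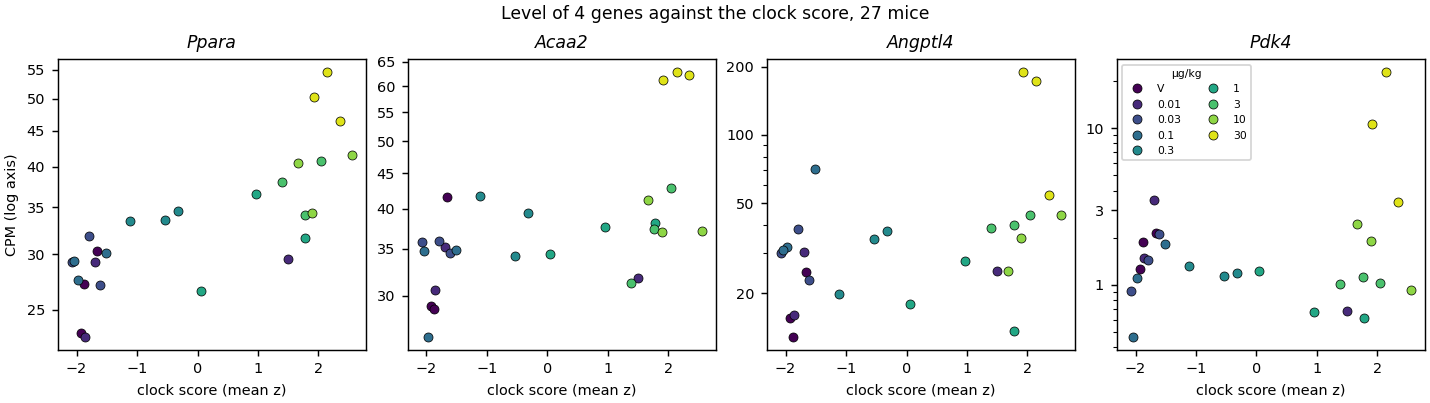
CPM (log axis) of *Ppara*, *Acaa2*, *Angptl4* and *Pdk4* against the clock score, 1 point per mouse and 27 in all, coloured by dose. *Ppara* is higher in mice of higher score, and the 30 µg/kg mice lie above those given 3 and 10 µg/kg in each of these genes.

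Other genes of fatty acid oxidation and ketogenesis were taken from 10 lists holding 94 genes, 86 of them tested and 78 of these outside the 8. At 30 µg/kg 16 of the 78 (20.5%) were called, 15 upward and 1 downward, where 9.4% of all genes were. Their median log2 fold change was 0.15, against 0.02 over all genes. Among the receptors and cofactors *Pparg*, a receptor related to PPARA (1.06, adjusted p = 0.0254), *Ppargc1a*, a coactivator of oxidative genes (1.32, adjusted p = 0.00103), and *Nr1d1*, a clock repressor (4.02, adjusted p = 0.000266), rose, and *Ppard*, the most abundant PPAR of the 3 at 226 ± 4.52 CPM in vehicle mice, was at 218 ± 14.0 CPM (SD, n = 3 each; edgeR, log2 fold change -0.05, adjusted p = 0.792). *Nr1d1* also belongs to the clock score, and its value was 4.67 without mouse 2 of vehicle. *Pparg* lost its call without any 1 vehicle mouse or mouse 2 of 30 µg/kg (adjusted p from 0.0515 to 0.138, edgeR). Of the genes for fatty acid uptake and activation 3 of 10 rose. They were *Fabp1*, a cytosolic fatty acid carrier (1.74, adjusted p = 0.0242), *Slc27a2*, an uptake and activation protein (0.87, adjusted p = 0.000388), and *Acsl1*, an acyl-CoA synthetase (0.63, adjusted p = 0.00796, all edgeR). *Acsl1* was highest in mouse 1, at 65.0 CPM against 56.0 and 38.8, and fell short of the fold limit without it (0.43) or without mouse 2 of vehicle (0.56). *Fabp1* lost its call without mouse 1 or 3 of vehicle or mouse 2 of 30 µg/kg (adjusted p from 0.099 to 0.17, edgeR), was 2.35 without mouse 2 of vehicle, and was 0.84 with index use as a covariate (adjusted p = 0.715, edgeR).

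**Figure D4:**
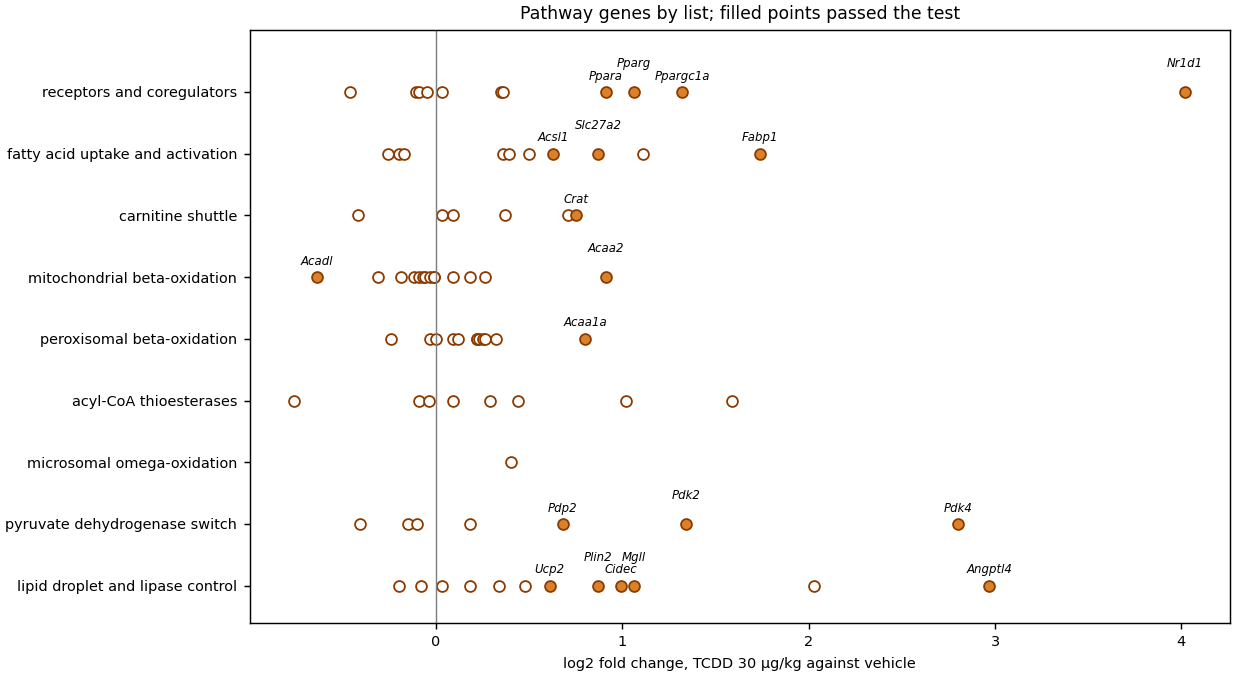
Log2 fold change at 30 µg/kg TCDD against vehicle of each tested gene of 9 of the pathway lists, 1 point per gene, with the 8 genes shown in their lists. Filled and named points passed the test, and they lie to the right of 0 except *Acadl*. The enzymes of mitochondrial beta-oxidation lie mostly close to 0, and those of peroxisomal beta-oxidation mostly a little to the right of it.

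Most of the oxidation enzymes themselves did not pass, and the medians of their lists differed. Of 14 mitochondrial beta-oxidation genes *Acaa2* rose and *Acadl*, the long-chain acyl-CoA dehydrogenase, fell from 112 ± 20.9 to 71.6 ± 8.91 CPM (log2 fold change -0.64, adjusted p = 0.00128, edgeR), with a median of -0.05 over the 14. *Acadl* fell short of the fold limit without mouse 3 of vehicle (-0.48) or mouse 3 of 30 µg/kg (-0.56). It was called lower at 3 µg/kg too, and its difference between 30 and 3 µg/kg was 0.01 (adjusted p = 0.989, edgeR). Of 12 peroxisomal genes *Acaa1a*, a peroxisomal thiolase, rose from 74.9 ± 8.32 to 130 ± 35.5 CPM (0.80, adjusted p = 0.000609, edgeR). Of 6 carnitine shuttle genes *Crat*, carnitine acetyltransferase, rose (0.75, adjusted p = 0.000583, edgeR). The median log2 fold change was 0.22 over the 12 peroxisomal genes, 9 of them above 0. It was 0.23 over the 6 carnitine shuttle genes, against 0.02 over all genes. Of the thioesterases 0 of 8 passed by edgeR, with 2 at an unadjusted p under 0.05, where 31.2% of all tested genes were.

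Of the 7 genes that set the activity of pyruvate dehydrogenase 3 rose. Beside *Pdk4* these were *Pdk2*, a second kinase of the complex, from 45.3 ± 8.09 to 115 ± 42.0 CPM (1.34, adjusted p = 0.000393), and *Pdp2*, a phosphatase that acts the opposite way (0.68, adjusted p = 0.0181, edgeR). *Pdk2* was called at 3 µg/kg too. *Pdp2* lost its call without mouse 1 or 3 of vehicle or mouse 2 of 30 µg/kg (adjusted p from 0.0528 to 0.171, edgeR). Of 12 tested genes of lipid droplets and lipase control 5 rose, namely *Angptl4*, the droplet proteins *Plin2* (0.87, adjusted p = 0.00135) and *Cidec* (0.99, adjusted p = 0.0102), the lipase *Mgll* (1.06, adjusted p = 0.00116) and the mitochondrial carrier *Ucp2* (0.61, adjusted p = 0.000115, all edgeR). *Cidec* lost its call without mouse 1 of vehicle or mouse 2 of 30 µg/kg (adjusted p = 0.0644 and 0.109, edgeR), and *Ucp2* then fell short of the fold limit (0.57 and 0.58). *Mgll* was highest in mouse 1, as the adipocyte markers were, and *Plin2* was lowest there. *Cyp4a10* and *Cyp4a14*, microsomal omega-hydroxylases and familiar PPARA targets in liver, had 0 CPM in all vehicle mice and were not tested. At 10 µg/kg 2 of the 78 (2.56%) were called, *Nr1d1* and *Fabp1*, near the 2.53% of all genes, and the count was 1 without mouse 1 or 3 of vehicle and 4 without mouse 2. *Slc27a2* was also called against 3 µg/kg (0.62, adjusted p = 0.0387, edgeR).

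Genes whose log2 CPM over the 27 mice followed each member most closely were picked by Pearson's r, which includes the dose groups and libraries that all genes share. For *Ppara* they were *Akr1c14* (r = 0.915), *Gm15376* (0.912) and the taurine transporter *Slc6a6* (0.909), for *Acaa2* *Ugt1a6a* (0.891), *Slc27a2* (0.888) and *Agpat3* (0.866), and for *Pdk4* *Gdpd2* (0.84) and *Zfp949* (0.809). For *Angptl4* they were *Tsc22d3* (0.901), *Sfxn1* (0.86) and *Serinc3* (0.852). *Tsc22d3* is a glucocorticoid-responsive gene, and r was 0.867 after the group means were removed. The 5 glucocorticoid-responsive genes listed, which include *Fkbp5* and *Zbtb16*, were all called upward at 30 µg/kg (edgeR). Of all tested genes 5.42% were called upward. The 5 genes summed to 612, 1560 and 1670 CPM in mice 1 to 3 against 425 to 440 CPM in vehicle mice, with mouse 1 lowest as for *Angptl4*. Their part in the result was not tested.

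The same was done for the genes that did not pass. For *Acot1* these were *Bcl2l11* (r = 0.759) and *Alg11* (0.736), for *Ehhadh* *Vnn1* (0.848), *Isoc1* (0.839) and *Cyp3a11* (0.8), for *Acadm* *Sult1d1* (0.761), *Mynn* (0.726) and *Pbld2* (0.725), and for *Cpt1a* *Tnpo2* (0.747), *Ikzf5* (0.689) and *Rbbp8nl* (0.633). Among the 8 genes the closest pair was *Ppara* and *Acaa2* (r = 0.835, or 0.494 with group means removed, n = 27), and *Ehhadh* was at -0.0121 with *Acaa2*.

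The stretch before the start site was available for 6 of the 8 genes from RefSeq (GRCm38.p6), and not for *Angptl4* and *Acaa2*. Of the members that rose, only *Ppara* and *Pdk4* were thus searched. The search covered both strands over 250 bases for GCGTG, the core bound by AhR and its partner ARNT, AGGTCA, the half-site of nuclear receptors, the direct repeat of AGGTCA spaced by 1 base (DR1), the form that PPARs prefer, CACGTG (E-box), TTATGTAA (D-box) and AGAACA (half-site of the glucocorticoid receptor). GCGTG was found in 4 of the 6, *Ppara* and *Pdk4*, which rose, and *Acadm* and *Ehhadh*, which did not pass, and it occurs in 28.2% of all 32851 such stretches. AGGTCA was found in *Cpt1a* and *Acadm* (14.0% of all), AGAACA in *Acot1* (16.1% of all), and DR1, CACGTG and TTATGTAA in 0 of the 6 (0.0335%, 6.02% and 0.819% of all). Shown are *Pdk4*, which rose, beside *Acadm* and *Ehhadh*, to set out that the core lies before genes of both kinds. Capitals mark the matches in either direction, so that CACGC is GCGTG and TGACCT is AGGTCA on the other strand. All 3 genes are on the - strand, and the sequences are written 5′ to 3′ along the gene, for *Pdk4* (chr6:5496310-5496528) ending where the annotated exon begins, for *Acadm* at chr3:153944644-153944893 and for *Ehhadh* at chr16:21787835-21788084.
Pdk4: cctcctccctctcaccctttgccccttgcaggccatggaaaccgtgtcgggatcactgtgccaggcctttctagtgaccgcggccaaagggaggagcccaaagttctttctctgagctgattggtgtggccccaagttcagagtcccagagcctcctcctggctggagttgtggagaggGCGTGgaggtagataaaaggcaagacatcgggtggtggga
Acadm: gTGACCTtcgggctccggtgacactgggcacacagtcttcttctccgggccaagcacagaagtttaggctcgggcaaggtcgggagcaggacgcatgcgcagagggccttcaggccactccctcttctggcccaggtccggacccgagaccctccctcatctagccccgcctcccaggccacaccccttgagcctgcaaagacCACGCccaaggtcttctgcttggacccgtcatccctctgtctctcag
Ehhadh: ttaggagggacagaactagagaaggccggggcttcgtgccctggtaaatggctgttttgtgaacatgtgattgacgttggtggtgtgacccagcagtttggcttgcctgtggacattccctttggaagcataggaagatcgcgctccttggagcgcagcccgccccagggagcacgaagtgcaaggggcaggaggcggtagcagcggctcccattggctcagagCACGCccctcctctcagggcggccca
Counted from the RefSeq start, the GCGTG match begins 71 bases before *Pdk4*, 47 before *Acadm* and 26 before *Ehhadh*. The RefSeq starts differ from the gene ends given above, and the stretch shown for *Pdk4* ends 32 bases before its RefSeq start.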

How the data were processed

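RNA-Seq was performed on ileal epithelium scrapings of 27 mice (3 per group, 9 groups). Per the labels and the study's methods, the authors checked reads with FastQC 0.11.3, trimmed them with Trimmomatic 0.33, aligned them to GRCm38 with TopHat2 2.1.0, used SAMtools 1.2.0 and HTSeq 0.6.1, and deposited raw read counts per Ensembl gene, without normalization. Reads matching no gene were 44.5 to 49.5% of unique reads and were left out here. HTSeq by default omits reads that align to several places or to overlapping genes, so genes that share sequence are undercounted. Whether counting used strand was not given in the sources used here.

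Counts were joined to GENCODE M21 names. edgeR 4.0.16 (R 4.3.3) was run with filterByExpr (16741 genes left), TMM factors and 1 quasi-likelihood fit of 27 mice in 9 groups. Each dose was compared with vehicle and 30 with 3 µg/kg, and a second fit used the rank of the dose (called at an adjusted p of 0.05, with no fold limit). Standard errors are the estimate over the root of the F statistic, and 95% intervals use edgeR's total degrees of freedom. Genes of few counts carry sampling error beside the spread between mice. The procedure was tested on simulated counts. No 2 mice of a group differed by as little as sampling noise (chi-square over degrees of freedom 6.99 to 74.26 in 27 pairs). Named genes are the 8 members, list genes called at 30 µg/kg, the 3 genes most alike to each member, *Cyp1a1* and check-list genes at 0 or called. Some genes that this rule selects are not reported here. Others that are named were chosen after their values were seen. The members and lists were chosen with earlier results of these data known. Alternatives were DESeq2 1.42.0, library size alone, upper-quartile factors, no filter, at least 10 counts in every mouse, index use or clock score as covariate, the 6 mice compared, no fold limit, each index use alone and leaving out each mouse.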

Additional observations from a re-analysis of the deposited data

How the results depend on the processing

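Across the alternatives, 4 of the 8 genes at 30 µg/kg TCDD against vehicle became 2 with index use and 0 with the clock score as a covariate, and 4 to 5 when 1 of the 6 mice was left out. The 3 called against 3 µg/kg became 0 in the 6 mice alone and 2 to 4 with 1 mouse left out. The 4 called in the trend became 1 with index use, 0 with the clock score, 0 within the first index use (16 mice) and 3 to 4 with 1 mouse left out. At 3 µg/kg, 1 gene was called in place of 0 in the 6 mice alone, without a filter and with no fold limit, and at 10 µg/kg 1 with no fold limit and 0 to 1 with 1 mouse left out. Of the pathway genes, members included, 20 of 86 at 30 µg/kg became 13 in the 6 mice alone, 10 with index use, 0 with the clock score and 14 to 25 with 1 mouse left out, and 2 at 10 µg/kg became 1 with index use, 0 with the clock score, 5 without a filter, 8 with no fold limit and 1 to 4 with 1 mouse left out. Over the whole table, index use gave 482 and the clock score 38 called genes at 30 µg/kg in place of 1574. In these, the cause was not tested.

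Signs turned for values near 0. *Cpt1a* at 30 µg/kg was -0.05 with library size alone and -0.05 to 0.18 with 1 mouse left out, and at 10 µg/kg -0.23 to 0.01; its slope was -0.009 with library size alone and -0.001 to 0.01 with 1 mouse left out. *Ehhadh* at 30 µg/kg was 0.01 with at least 10 counts per mouse and -0.09 to 0.11 with 1 mouse left out, and its slope was 0.009 with the clock score, 0.017 in the first index use and 0.007 with index use. *Pdk4* at 10 µg/kg was -0.58 with index use, -0.04 with library size alone, 0 without a filter and -0.28 to 0.29 with 1 mouse left out, and its slope in the first index use was -0.218. *Acot1* at 30 µg/kg was -0.01 to 1.5 and its slope -0.096 to 0.057 with 1 mouse left out. The slope of *Acadm* was -0.002 with library size alone, and *Pparg* was -0.1 at 30 µg/kg with the clock score. Library size alone moved the median of all genes at 30 µg/kg from 0.0192 to -0.111. No paired analysis was made, because each mouse gave 1 library and belonged to 1 group. The labels give no replicate numbers, and the numbers 1 to 3 used here only name the mice of a group.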
